A study of Mus musculus with 18 samples.

Results

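The 7 genes that encode the subunits of NMDA-type glutamate receptors, Grin1, Grin2a, Grin2b, Grin2c, Grin2d, Grin3a and Grin3b, were followed in bulk RNA sequencing of mouse cortical neuronal cultures. They were taken by name from a table of 43629 genes. All 7 were in the table, and all 7 had enough counts to be among the 15671 genes tested. NMDA receptors are ion channels assembled from several kinds of subunit, and open when glutamate and a co-agonist, glycine or D-serine, are bound together. GluN1, from Grin1, is part of every such receptor and binds the co-agonist. The GluN2 subunits, from the Grin2 genes, bind glutamate and set how fast and at what voltage the channel works, while the GluN3 subunits, from the Grin3 genes, bind glycine and lower the calcium that passes. In the forebrain, GluN2B and GluN3A are known for their high levels in young neurons and GluN2A for its rise as neurons mature.

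All cultures received a lentivirus at 7 days in vitro and were collected 10 days later, and RNA was enriched for poly(A) transcripts. Each of 3 groups had 6 libraries, numbered 1 to 6. In the mSc group, the control, the virus carried mScarlet, which is a red fluorescent protein. In the Psmb5 group the virus carried Psmb5, a catalytic subunit of the constitutive proteasome. In the Psmb8 group it carried Psmb8, the counterpart that replaces Psmb5 in the interferon-inducible immunoproteasome. The labels' treatment protocol speaks of an Ifng construct in every sample, while the treatment tags and the design text give the 3 constructs above, which were followed here. The labels name no strain, age or sex, no promoter of the constructs, and no share of transduced cells, and do not say whether libraries came from separate animals. The p-values therefore rest on the spread between libraries, part of which may be technical.

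Library totals lay between 15337511 and 21074229 counts. Psmb5 stood at 42.9 CPM (counts relative to the scaled library total) in mSc and 451.5 CPM in Psmb5 cultures, and Psmb8 at 6.28 CPM in mSc and 887 CPM in Psmb8 cultures. Of 12 pan-neuronal markers, 12 were expressed, with a summed level of 4727 to 5802 CPM, whereas 8 of 10 microglial markers lay under 1 CPM. A list of 8 vascular and fibroblast markers, 5 of them tested, summed to 13.9 to 54.1 CPM. In that list the endothelial marker Cldn5 had 0 counts in every library. Same-numbered libraries of the 3 groups were alike, and some numbers stood apart. Summed astrocyte markers reached 5112 to 6126 CPM in the 3 libraries numbered 1 and 1693 to 2296 CPM in the other 15. Oligodendrocyte-lineage markers were lowest in numbers 3 and 6, and a list of 10 interferon-stimulated genes, added after values were seen, summed to 62.5 to 107.4 CPM in number 3 and 187 to 309.5 CPM in number 6, against 9.28 to 25.3 CPM elsewhere. In bulk RNA, fewer cells of a type and less RNA per cell cannot be told apart.

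Promoter windows from RefSeq (GRCm38.p6) were at hand for 4 of the 7 genes, Grin1, Grin2c, Grin2d and Grin3b. The windows of Grin1, the most abundant subunit and the one on which the group comparisons below turn, and of Grin2c, the least abundant Grin2 gene, are shown from 250 bases before the annotated start to 30 bases after it. Capitals mark the GC box GGGCGG, the EGR-type motif GCGGGGGCG and the core TGACG of the cyclic-AMP response element, each searched on both strands.
Grin1 promoter, minus strand: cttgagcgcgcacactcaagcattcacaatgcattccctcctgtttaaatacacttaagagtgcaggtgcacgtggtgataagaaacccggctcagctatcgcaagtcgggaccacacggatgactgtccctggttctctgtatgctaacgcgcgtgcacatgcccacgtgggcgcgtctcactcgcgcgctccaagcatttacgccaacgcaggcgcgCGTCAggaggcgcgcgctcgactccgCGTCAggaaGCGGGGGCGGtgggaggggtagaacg
Grin2c promoter, minus strand: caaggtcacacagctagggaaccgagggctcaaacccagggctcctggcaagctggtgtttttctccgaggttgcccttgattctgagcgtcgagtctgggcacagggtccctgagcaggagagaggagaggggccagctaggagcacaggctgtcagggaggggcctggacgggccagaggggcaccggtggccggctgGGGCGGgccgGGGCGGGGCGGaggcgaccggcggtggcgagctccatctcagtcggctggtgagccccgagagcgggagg
The Grin1 sequence is chr2:25319158-25319437 and the Grin2c sequence chr11:115267214-115267493. In the Grin1 window the EGR-type motif at +5 to +13 and a GC box at +9 to +14 overlap, both on the strand of the gene, and TGACG lies on the opposite strand (read here as CGTCA) at -31 to -27 and at -5 to -1. In the Grin2c window 3 GC boxes lie between -50 and -30, and neither of the other motifs was found. None of these 3 motifs was found in the 300-base windows of Grin2d and Grin3b. The Grin2d window reaches up to chr7:45866931, inside the gene span given below (45831883 to 45878378, minus strand). It therefore does not cover the outermost start of that gene. Of motifs searched but not marked, the E-box CACGTG (7.15% of all windows) lay in the Grin1 window at -181 to -176 and -85 to -80. TATAAA (13.6% of all windows) lay in the Grin3b window at -164 to -159. Of 32851 windows of 300 bases, 35.7% held a GC box, 2.91% the EGR-type motif and 20.8% TGACG. These matches describe the letters only. No binding or chromatin was measured.

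To compare genes, levels were divided by exon length. Grin1 (ENSMUSG00000026959, chromosome 2, 25291181 to 25319187, minus strand, GRCm38) had the highest level, with a mean of 78.7 CPM per kb of exon over the 18 libraries, and was above every other subunit gene in all of them. The Grin1 level was a median of 5.47 times that of Grin2b (ENSMUSG00000030209, chromosome 6, 135713233 to 136173511, minus strand), which came next at 14.4 CPM per kb, and their ranges did not overlap. Grin2d, at 7.66 CPM per kb, lay below Grin2b in 17 of 18 libraries, with overlapping ranges. Grin3a, at 3.65 CPM per kb, lay below Grin2d in all 18. A wider step followed: Grin2a, at 0.706 CPM per kb, was lower than Grin3a in 18 of 18 libraries, with no overlap. Grin2a was above Grin2c (0.467 CPM per kb) in 15 of 18 libraries and Grin2c above Grin3b (0.168 CPM per kb) in 16 of 18. These last steps were within the spread of the libraries. The order was the same with the length of the principal transcript in place of all exons, although the median of Grin1 over Grin2b then became 12.1, and Grin3a was below Grin2d in 14 of 18 libraries.

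**Figure D1:**
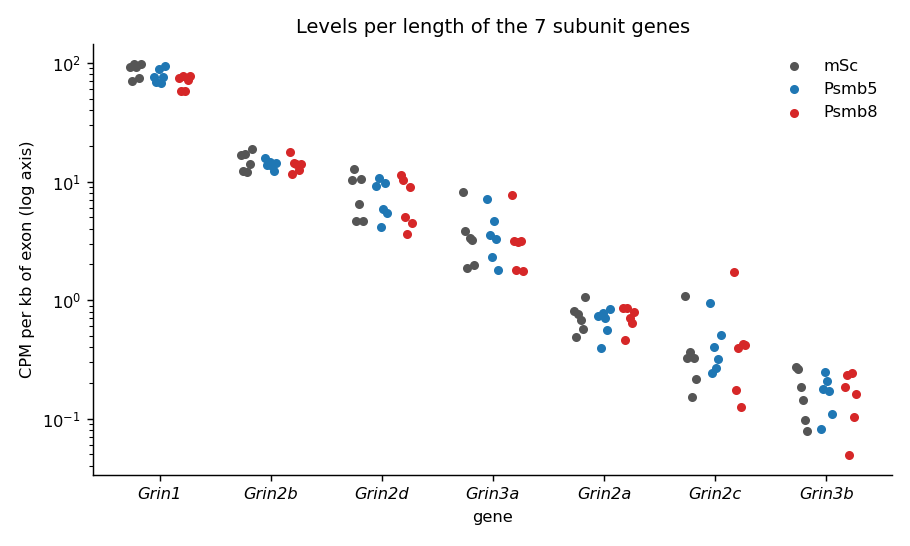
Levels of the 7 subunit genes, ordered by mean, in CPM per kb of exon on a log axis; each point is 1 library, coloured by group. Grin1 (mean 78.7) and Grin3a (mean 3.65) do not overlap with the next gene down, while other neighbours do. The ranges of the 3 groups overlap for each gene. For Grin1 the mSc libraries reach higher (70.3 to 98.75 CPM per kb) than those of Psmb8 (57.75 to 78.2 CPM per kb).

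Among the 4 Grin2 genes, which compete for the same place in the receptor, Grin2b made up most of the transcript. Per kb of exon, Grin2b was 62.7% ± 9.25 of the Grin2 sum over the 18 libraries (SD, n = 18), from 47.7% to 76.0%. Grin2d, known in cortex mainly from interneurons, was 32.3% ± 9.94 and ranged from 18.8% to 49.2%. Grin2a was 3.10% ± 0.854, and Grin2c, known from cerebellum and glia, 1.89% ± 1.25. Grin2b thus stood at 21.2 ± 4.33 times Grin2a per kb, from 16.7 to 34.7 times. The Grin2d share followed the replicate number more than the group. In mSc, Psmb5 and Psmb8 it was 49.2%, 42.8% and 45.5% in number 2, and 18.8%, 25.6% and 22.6% in number 6. Number 4 was spread more widely, at 33.7%, 28.5% and 19.5% in the same order. The sum of the Grin2 genes relative to Grin1, per kb, averaged 0.285 ± 0.0633 over mSc, 0.293 ± 0.0581 over Psmb5 and 0.327 ± 0.0662 over Psmb8 libraries (SD, n = 6 per group), with overlapping ranges. With the length of the principal transcript these means were lower, at 0.138, 0.141 and 0.157. On that scale Grin2d exceeded Grin2b in mSc number 2 (53.3% against 43.5%) and also in Psmb8 number 2 (49.6% against 47.45%).

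**Figure D2:**
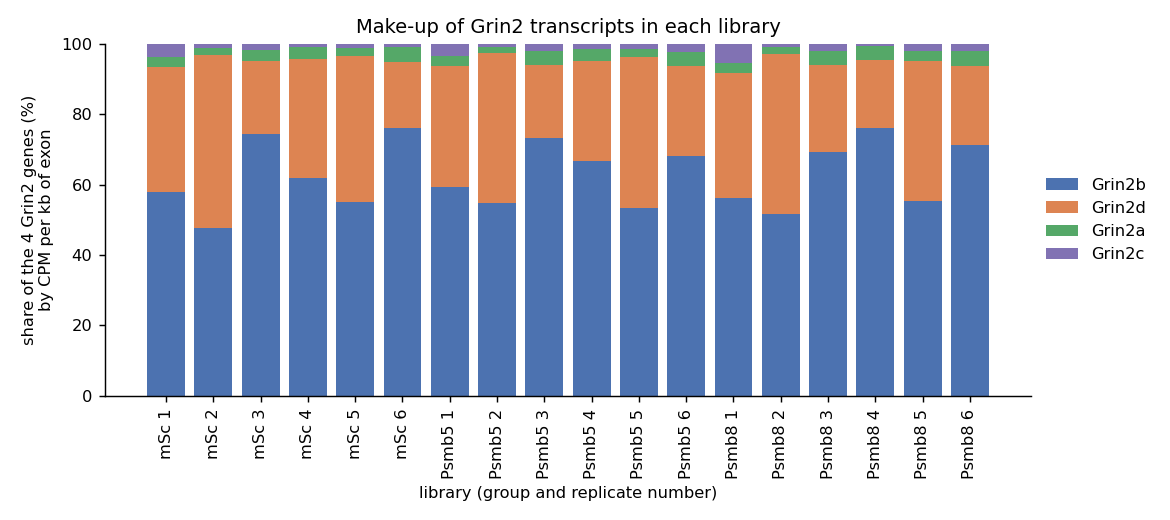
Share of the 4 Grin2 genes in their summed CPM per kb of exon (percent, stacked to 100%), 1 bar per library, labelled by group and replicate number. Grin2b is the largest part in all bars but mSc 2, where Grin2d reaches 49.2% and Grin2b 47.7%.

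The ratio of Grin2b to Grin2a, which tracks the known switch of GluN2 subunits with neuronal age and does not depend on library scaling, was compared between groups. The log2 count ratio ran from 4.60 to 5.12 in mSc (median 4.89), from 4.57 to 5.58 in Psmb5 (median 4.82) and from 4.53 to 5.12 in Psmb8 cultures (median 4.77). The groups overlapped throughout. Its mean in Psmb8 differed from mSc by -0.090 (exact two-sided permutation p = 0.483, adjusted over 3 comparisons 0.847, lower in 3 of 6 pairs), from Psmb5 by -0.12 (p = 0.565, adjusted 0.847), and Psmb5 from mSc by 0.030 (p = 0.883). An exact sign-flip test over the 6 same-numbered pairs gave p = 0.438, 0.156 and 0.812 in the same order, where the smallest p possible is 0.0312.

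The question the groups pose is whether subunit transcripts change when Psmb5 or Psmb8 is overexpressed. Grin1 was lower in Psmb8 than in mSc cultures in 6 of 6 same-numbered pairs, and passed the threshold there when replicate numbers were paired. With the low-count filter applied, no other subunit gene passed between any of the groups. Grin1 stood at 682 CPM (lowest), 899 CPM (median) and 958 CPM (highest) in mSc. In Psmb5 these values were 654, 742.5 and 911 CPM, and in Psmb8 560, 713 and 759 CPM. In mSc, 4 of the 6 libraries (numbers 1, 3, 4 and 6) lay above the highest Psmb8 library. The mSc libraries 2 and 5 fell within the Psmb8 range, so the groups overlapped. The means were 852 ± 118.5, 764 ± 102 and 676 ± 91.8 CPM (SD, n = 6 each). Within pairs 1 to 6 the log2 difference between Psmb8 and mSc was -0.31, -0.28, -0.34, -0.68, -0.057 and -0.34, widest in pair 4 and narrowest in pair 5.

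**Figure D3:**
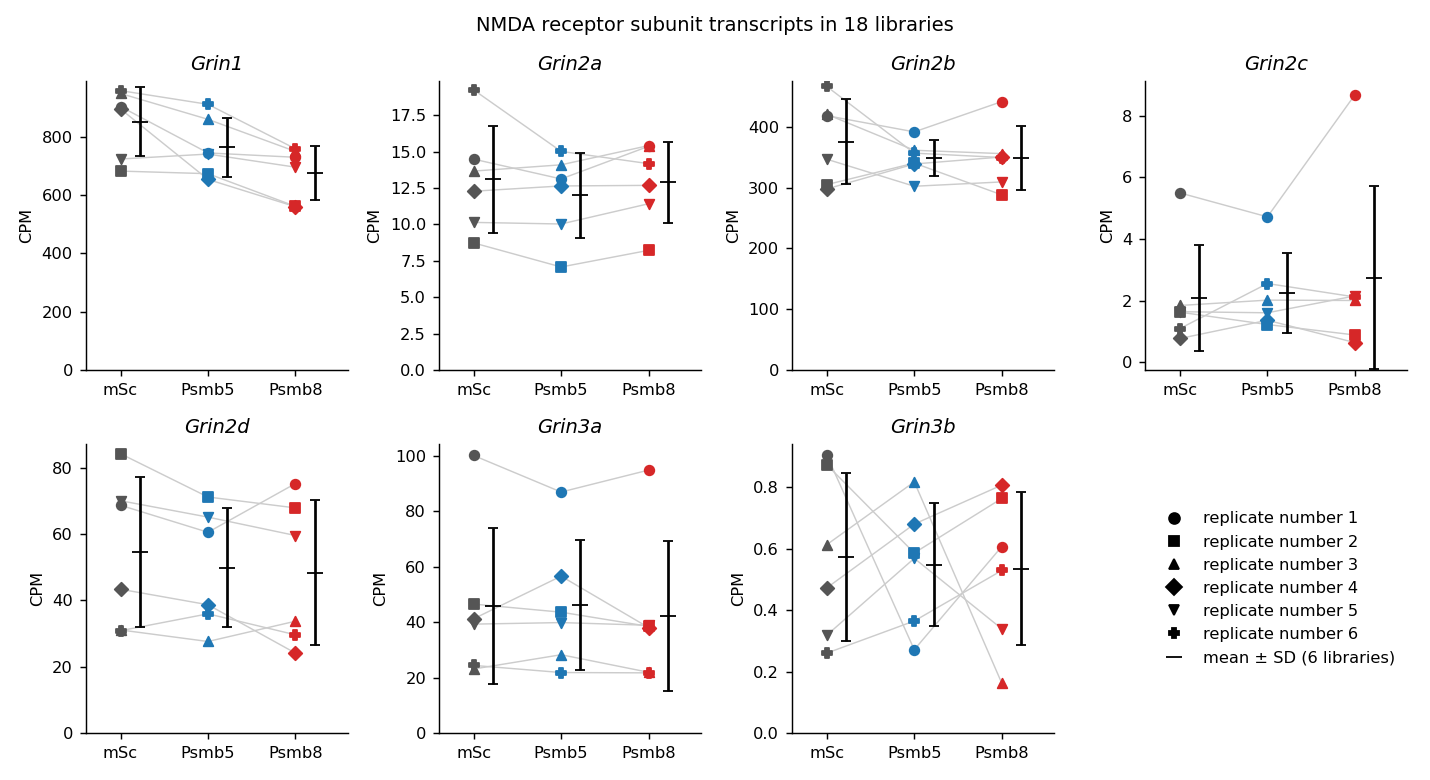
CPM of each subunit gene in every library; symbols mark the replicate number, grey lines join libraries of the same number, and black bars give the mean ± SD of 6 libraries. Grin1 falls from mSc to Psmb8 along all 6 lines (682 to 958 CPM against 560 to 759 CPM), whereas Grin2c and Grin3a are set apart by number 1, and Grin3b lies under 1 CPM; the Psmb8 bar of Grin2c reaches below 0 because its SD exceeds its mean.

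Without pairing, 0 of the 7 subunit genes passed the threshold between Psmb8 and mSc (edgeR quasi-likelihood test, p adjusted by Benjamini-Hochberg, threshold 0.05), as against 0.00638% of all tested genes, namely Psmb8 alone. Grin1 differed by -0.33 on the log2 scale (SE 0.11, adjusted p = 0.9999 in edgeR), and 340 genes lay at an unadjusted p under 0.05. DESeq2 and limma-voom without pairing called 0 of the 7 as well. With the replicate number as a block, Grin1 passed: its log2 fold change was -0.33 (SE 0.055, 95% interval -0.45 to -0.22, edgeR adjusted p = 0.00599), or 0.793-fold (0.732 to 0.858). That is 1 of 7 subunit genes, beside 0.325% of all genes tested (51 genes, 18 higher and 33 lower), and Grin1 had the 13th smallest p. The count of 51 fell to 9 without number 3 and to 19 without number 2 or number 6. The call was lost without the 3 libraries numbered 3 (-0.33, adjusted p = 0.0591 in edgeR) and without numbers 3 and 6 together (-0.34, adjusted p = 0.169). The difference itself was as large in their absence. Interferon-stimulated genes were high in both numbers, and highest in number 6. The call held without number 6 alone (-0.34, adjusted p = 0.0420 in edgeR), without number 2 (-0.345, adjusted p = 0.0322) and without number 5 (-0.39, adjusted p = 0.00233). It also held without number 1, where astrocyte markers were high (adjusted p = 0.0122), and without number 4, the widest pair (-0.26, adjusted p = 0.00673). Why the call changed was not tested.

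Markers of cell types were set beside the Grin1 difference. The summed pan-neuronal markers averaged 5217 CPM in mSc and 5300 CPM in Psmb8 cultures, and the 11 excitatory markers 1494 and 1437 CPM. The 13 listed inhibitory markers, 12 of them tested, averaged 924.1 and 1038 CPM (Pvalb lay under 1 CPM). Astrocyte markers averaged 2614 and 2473 CPM, and oligodendrocyte-lineage markers 611 and 584.5 CPM. The groups overlapped in all of these sums. Within same-numbered pairs, pan-neuronal and inhibitory sums were higher in Psmb8 than in mSc in 5 of 6 pairs each, excitatory sums in 2 of 6, astrocyte sums in 1 of 6, oligodendrocyte-lineage sums in 3 of 6 and interferon-stimulated sums in 2 of 6. Their part in the Grin1 difference was not tested. An antisense gene, Grin1os, overlaps 13.5% of the Grin1 exons, and the strand setting of the counting is not known. Grin1os held 1.03% to 2.05% of the Grin1 count, and in the blocked fit differed between Psmb8 and mSc by -0.068 (SE 0.072, adjusted p = 0.798 in edgeR). Grin1 transcripts are rich in G and C (59.4% in the longest). Removing each library's trend with GC content, in the same blocked fit, left the Grin1 difference at -0.30 (SE 0.047, adjusted p = 0.00306 in edgeR), and removing the trend with exon length at -0.33 (adjusted p = 0.00733).

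Psmb5 cultures lay between the other groups in mean Grin1 level. Between Psmb5 and mSc, 0 of 7 subunit genes passed the edgeR threshold with or without the block, beside 0.00638% of all genes in either fit (1 gene, Psmb5), and 148 genes lay at an unadjusted p under 0.05 without the block. Grin1 was lower in 5 of 6 pairs, with a blocked log2 fold change of -0.16 (SE 0.055, 95% interval -0.27 to -0.044, edgeR adjusted p = 0.621). Without number 4, the widest pair, it was -0.096 (adjusted p = 0.602 in edgeR). Between Psmb8 and Psmb5, 0 of 7 passed, beside 0.0128% of all genes without the block and 0.0383% with it (2 and 6 genes), and 209 genes lay at an unadjusted p under 0.05 without the block. Grin1 was lower in Psmb8 in 6 of 6 pairs, by -0.18 (SE 0.055, 95% interval -0.29 to -0.063, edgeR adjusted p = 0.369). These 3 comparisons share libraries, so they are not independent of each other.

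**Figure D4:**
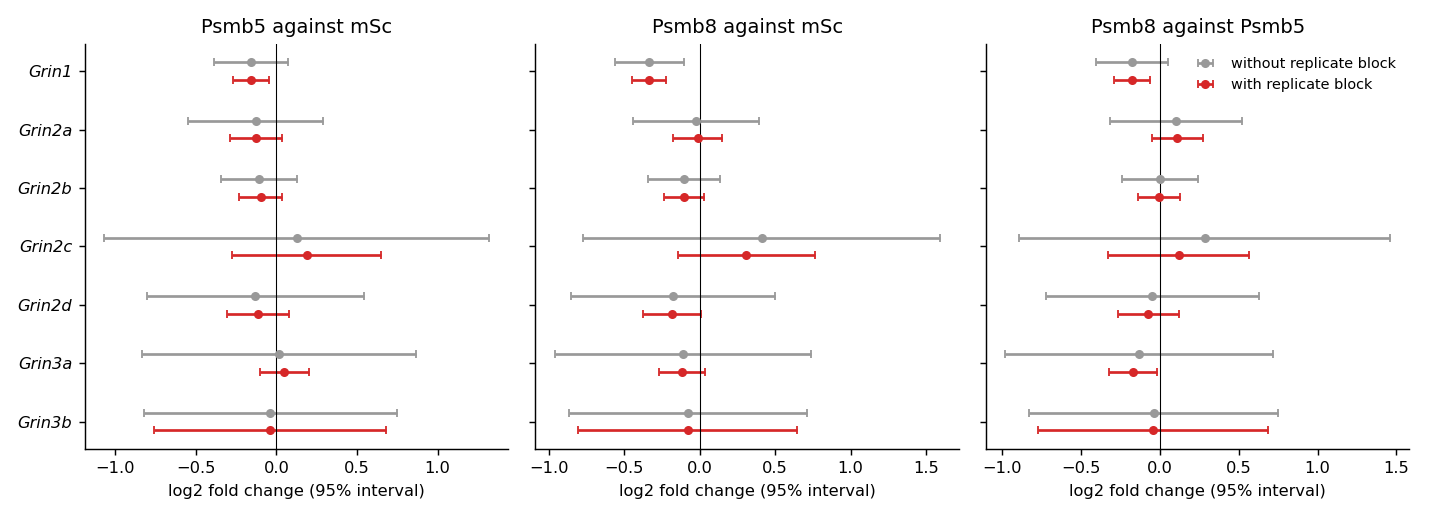
Log2 fold changes of the 7 subunit genes in the 3 comparisons, with 95% intervals, without (grey) and with (red) the replicate number as a block. The block narrows most intervals, and Grin1 between Psmb8 and mSc (-0.33, -0.45 to -0.22 with the block) is the farthest from 0 relative to its interval.

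Grin2b, the main glutamate-binding subunit gene, ranged from 298 to 466 CPM in mSc (median 382), from 302 to 391 CPM in Psmb5 (median 348) and from 288 to 441 CPM in Psmb8 cultures (median 350). The groups overlapped, and same-numbered pairs went both ways, 4 of 6 lower in Psmb8 than in mSc. Its blocked log2 fold change was -0.10 (SE 0.064, 95% interval -0.24 to 0.031, edgeR adjusted p = 0.604). The count ratio of Grin2b to Grin1 averaged 0.442 ± 0.0561 over mSc, 0.461 ± 0.0613 over Psmb5 and 0.520 ± 0.0769 over Psmb8 libraries (SD, n = 6 per group). Those ratios overlapped between groups, and no test was run on them.

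Grin2a, the subunit gene of mature synapses (ENSMUSG00000059003, chromosome 16, 9567898 to 9995560, minus strand), lay at 8.73 to 19.2 CPM in mSc (median 13.0), 7.08 to 15.01 CPM in Psmb5 (median 12.9) and 8.22 to 15.4 CPM in Psmb8 cultures (median 13.4). Its blocked log2 difference between Psmb8 and mSc was -0.013 (SE 0.078, 95% interval -0.17 to 0.15). Grin2d (ENSMUSG00000002771, chromosome 7, 45831883 to 45878378, minus strand) ranged from 30.9 to 84.3 CPM in mSc (median 56.1), from 27.6 to 71.2 CPM in Psmb5 (median 49.7) and from 24.1 to 75.3 CPM in Psmb8 cultures (median 46.7). The 3 groups overlapped over most of their range. An antisense gene, Gm45441, which is not among the counted genes, overlaps 9.66% of the Grin2d exons. The blocked Grin2d difference between Psmb8 and mSc was -0.19 (SE 0.092, edgeR adjusted p = 0.491), and pair 4 alone stood at -0.85. Without number 4 it was -0.078. With the block and no filter on low counts, a fit that called 321 genes, Grin2d passed in that comparison (-0.19, adjusted p = 0.0252 in edgeR), and Grin1 passed in all 3 comparisons (adjusted p = 0.00284 for Psmb5 against mSc and 0.000121 for Psmb8 against Psmb5).

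Grin2c (ENSMUSG00000020734, chromosome 11, 115249169 to 115267243, minus strand) was scarce, at 0.768 to 5.49 CPM in mSc (median 1.63), 1.22 to 4.72 CPM in Psmb5 (median 1.81) and 0.634 to 8.68 CPM in Psmb8 cultures (median 2.06). Number 1 was the highest library in each group. The blocked Grin2c difference between Psmb8 and mSc was 0.31 (SE 0.22, 95% interval -0.14 to 0.76, edgeR adjusted p = 0.658), higher in 4 of 6 pairs.

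Neither GluN3 gene passed the threshold between any groups in the fits run. Grin3a (ENSMUSG00000039579, chromosome 4, 49661611 to 49845744, minus strand) ranged from 23.1 to 100.2 CPM in mSc (median 40.3), from 21.8 to 87.0 CPM in Psmb5 (median 41.7) and from 21.7 to 94.9 CPM in Psmb8 cultures (median 38.3), with number 1 the highest in each group and number 3 or 6 the lowest. It was lower in Psmb8 than in mSc in 6 of 6 pairs but by little, with a blocked log2 fold change of -0.12 (SE 0.073, 95% interval -0.27 to 0.033, edgeR adjusted p = 0.597). Grin3b (ENSMUSG00000035745, chromosome 10, 79970715 to 79977190, plus strand) had 3 to 14 counts in a library, a level between 0.162 and 0.905 CPM. At that depth its blocked difference between Psmb8 and mSc of -0.081 had a 95% interval from -0.81 to 0.65. Tmem259, on the opposite strand, overlaps 32.1% of the Grin3b exons with 2626 to 3940 counts in a library, so that the Grin3b values are uncertain.

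Over the 7 subunit genes the median blocked log2 fold change was -0.10 for Psmb8 against mSc, -0.097 for Psmb5 against mSc and -0.042 for Psmb8 against Psmb5. The medians of all tested genes were 0.00081, 0.0018 and -0.000074. For Psmb8 against mSc 10% of all genes lay below -0.15 and 10% above 0.13. Grin2a, Grin2b, Grin3a and Grin3b lay between these values, Grin1 and Grin2d below them and Grin2c above. Grin2d no longer lay below without number 4.

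More subunit genes passed the threshold between replicate numbers than between constructs. Between numbers, 6 of 7 subunit genes differed (edgeR quasi-likelihood test over the blocked fit, adjusted p under 0.05), beside 64.3% of all genes tested, so that most genes of the table varied in this way. Grin3a differed most (adjusted p = 6.8e-12 in edgeR, rank 52 of 15671), with means over 3 libraries of 94.0 CPM in number 1, between 39.3 and 45.3 CPM in numbers 2, 4 and 5, and 24.4 and 22.6 CPM in numbers 3 and 6. Grin2d was high in numbers 1, 2 and 5 (68.2, 74.5 and 65.0 CPM) and low in numbers 3, 4 and 6 (30.8, 35.4 and 32.2 CPM; adjusted p = 1.5e-08 in edgeR). Grin2c averaged 6.30 CPM in number 1 and 0.921 to 1.95 CPM in the other numbers (adjusted p = 6.5e-07 in edgeR). Grin2a went another way, highest in number 6 (16.1 CPM) and lowest in number 2 (8.01 CPM). Grin1 was likewise highest in number 6 (876 CPM) and lowest in number 2 (639 CPM), and Grin2b highest in number 1 (417 CPM) and lowest in number 2 (311 CPM). For Grin3b no difference was called (adjusted p = 0.428 in edgeR).

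Marker sums moved with the same numbers. Number 1, with the highest Grin3a and Grin2c, also had the highest sums of astrocyte markers (mean 5554 CPM, against 1889 to 2093 CPM in other numbers), inhibitory markers (1306 CPM, against 759 to 1091 CPM) and excitatory markers (1799 CPM, against 1212 to 1618 CPM). Numbers 3 and 6, with the lowest Grin3a and low Grin2d, had the lowest oligodendrocyte-lineage sums (349 and 301 CPM, against 602 to 895 CPM). They also had the highest interferon-stimulated sums (79.2 and 250.9 CPM) and the lowest excitatory (1212 and 1263 CPM) and inhibitory sums (800 and 759 CPM). Number 4, where Grin2d was also low (35.4 CPM), had the highest oligodendrocyte-lineage sum (895 CPM) and the lowest interferon-stimulated sum (13.1 CPM). Its inhibitory sum was 903 CPM and its excitatory sum 1618 CPM. Number 5, where Grin2d was high (65.0 CPM), had a lower inhibitory sum (821 CPM) and a lower excitatory sum (1412 CPM) than number 4. In number 2, with the highest Grin2d (74.5 CPM), these sums were 1091 and 1444 CPM. The part of these markers in the subunit levels was not tested, and what a replicate number stands for is not given in the labels.

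**Figure D5:**
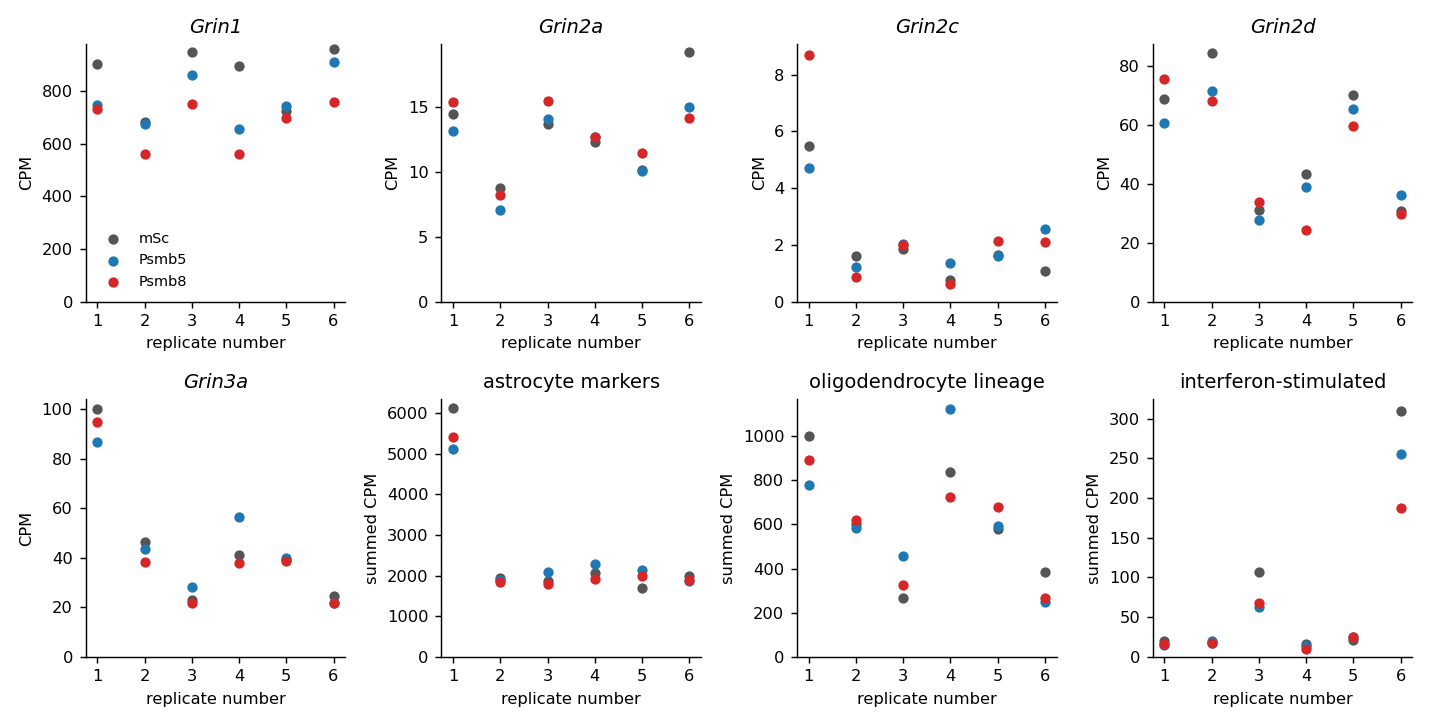
Levels of 5 subunit genes (CPM) and summed marker lists (CPM) against the replicate number, 1 point per library, coloured by group. Libraries of the same number mostly lie close together for Grin2d and Grin3a. They lie widest apart in number 4, from 24.1 to 43.4 CPM for Grin2d and from 38.05 to 56.6 CPM for Grin3a. Number 1 is highest for Grin3a, Grin2c and astrocyte markers, and numbers 3 and 6 are highest for interferon-stimulated genes.

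Across the 18 libraries the subunit genes themselves fell into differing patterns, given here as descriptions since libraries share replicate numbers. Log2 CPM of Grin2a correlated with Grin2b at r = 0.71 and with Grin1 at r = 0.61, Grin1 with Grin2b at r = 0.53, and Grin2d with Grin3a at r = 0.66, whereas Grin2a and Grin2d ran opposite to each other (r = -0.60). The genes most like each subunit gene were sought among 14321 genes over the same 18 libraries. For Grin1 they were Dlgap3, a postsynaptic scaffold gene (r = 0.93), Agap2, a GTPase-activating protein gene (r = 0.92), and Chpf, which makes chondroitin chains (r = 0.91). For Grin2a they were the potassium channel genes Kcnma1 and Kcnj4 and the opsin gene Opn3 (r = 0.93 to 0.94). For Grin2b, Tmem245, the potassium channel gene Kcnh1 and Clmn came first (r = 0.88 to 0.90). For Grin2c they were the integrin gene Itga9, the adhesion gene L1cam and the actin nucleator gene Spire1 (r = 0.90 to 0.91). Grin2d was most like Mapk15, Selenom and Slc16a11 (all r = 0.97), and Grin3a most like Scrg1, the peroxisomal enzyme gene Phyh and the G-protein gene Gnai2 (r = 0.97).

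Genes that work with the receptor were followed as 5 lists. Without the block, 0 genes of any list passed in any comparison. With the block, between Psmb8 and mSc, 1 of 17 scaffold genes was called, beside 0.325% of all genes tested, and it was lower: Shank3, which links receptor complexes to the actin skeleton, at -0.27 (SE 0.042, edgeR adjusted p = 0.0039, lower in 6 of 6 pairs). Dlg4, the gene of a main NMDA receptor scaffold, a gene that the naming rule does not pick and that was chosen with its values known, stood at -0.035 (SE 0.035) and Dlgap3 at -0.18 (SE 0.048, adjusted p = 0.135), neither called. The scaffold list had a median of -0.0094. Among 15 genes of calcium signalling downstream of the receptor, 1 was called and lower, beside the same 0.325% of all genes, Nsmf, which encodes the synapse-to-nucleus messenger Jacob, at -0.24 (SE 0.041, edgeR adjusted p = 0.00969, lower in 6 of 6 pairs), and the list's median was -0.045.

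The other lists gave no call with the block between Psmb8 and mSc. These were 11 tested of 13 genes for supply and removal of the co-agonists (median -0.035; Shmt1, which makes glycine from serine, had the smallest p at -0.15, SE 0.091), 11 trafficking genes (median 0.0050; Lin7a 0.14, SE 0.046) and 17 genes of kinases and phosphatases that act on the subunits (median 0.024; Dapk1 -0.075, SE 0.034). In the other comparisons 0 genes of the 5 lists passed with the block. The smallest p per list between Psmb5 and mSc belonged to Slc1a5 (0.37), Homer1 (0.16), Lin7a (0.17), Cdk5 (-0.13) and Nsmf (-0.11), and between Psmb8 and Psmb5 to Slc1a5 (-0.45), Shank3 (-0.16), Lin7b (0.066), Cdk5 (0.081) and Camk2d (-0.14), all blocked log2 fold changes with edgeR adjusted p from 0.184 to 0.798.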

How the data were processed

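RNA from 18 mouse cortical neuronal cultures, 6 in each of the groups mSc, Psmb5 and Psmb8, was sequenced after poly(A) enrichment, per the labels' protocols. A single table of raw counts per gene was deposited by the authors, and all 18 of its columns matched a sample by title. STAR 2.4 and DESeq2, and the builds GRCm39 and mm10, are named without a role in the submitters' processing notes. For the counting tool, strand setting and annotation, a statement was not given in the sources used here. Ensembl identifiers were paired with symbols for 42462 of 43629 genes. Coordinates, exon lengths and GC content come from GENCODE's annotation of GRCm38 and may differ from the build behind the counts (99.3% of tested genes had a GC value). Promoter windows come from RefSeq.

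The counts went into edgeR 4.0.16 (R 4.3.3). After filterByExpr by group, 15671 genes remained, TMM scaled the libraries, and the 3 groups entered 1 model whose contrasts were tested by quasi-likelihood. Adjustment of p was by Benjamini-Hochberg over all tested genes (threshold 0.05). CPM values are relative to the TMM-scaled library size. Standard errors and 95% intervals derive from the quasi-likelihood statistic. At these depths a gene at 1 CPM has 15 to 21 counts, and counting error limits Grin3b and Grin2c. The tests were also run on simulated counts with known changes. The share of changes recovered is not given here, so that run is no measure of the power to find small differences. No pair of libraries in a group agreed within counting noise (chi-square per degree of freedom 2.91 to 37.8 over 45 pairs).

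The groups share replicate numbers. After subtraction of group means, log2 CPM correlated in all 18 same-numbered pairs (r from 0.447 to 0.729, mean 0.603). Over 90 other pairs r ran from -0.535 to 0.648 (mean -0.119), so the ranges overlapped. The subtraction itself pushes the mean over the other pairs below 0, so that mean is no separate evidence of pairing. The numbers were taken to pair the samples. Calls are given without and with the number as a block, and most fold changes and intervals of single genes with it. Intervals of the subunit genes were wider without the block, for Psmb8 against mSc -0.96 to 0.74 for Grin3a and -0.85 to 0.50 for Grin2d. The block lowered the common coefficient of variation from 17.9% to 5.94%.

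The subunit genes and all lists were chosen with earlier results of these data known. Named genes are the 7 subunit genes; per list and comparison up to 3 called genes or, where none was called, the gene with the smallest p; the 3 genes most correlated with each subunit gene at 1 CPM or more; and Psmb5 and Psmb8. Alternatives were DESeq2 1.42.0, limma-voom (limma 3.58.1), other scaling, no filter or one at 5 CPM, the block, models restricted to the groups compared, and each library left out. The same within the blocked fit, removal of GC or length trends, and leaving out numbers 3 and 6 were added after seeing the data.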

Additional observations from a re-analysis of the deposited data

Results flagged for a closer look

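In 10 of 66 sets of 6 values, one value stood apart from the others by more than Dixon's gap test allows, a test that flags about 1 in 20 such sets by chance. Sets that share libraries are not independent. The libraries numbered 1 gave 6 of these values. Grin2c was set apart in Psmb8 replicate 1 (8.68 CPM) and mSc replicate 1 (5.49 CPM), as was its share of the Grin2 transcripts per kb in the same libraries (5.44% and 3.75%). Grin3a was set apart in Psmb8 replicate 1 (94.9 CPM) and mSc replicate 1 (100.2 CPM). Summed astrocyte markers were 5425 and 6126 CPM in these libraries.

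The remaining values were single ones. The log2 count ratio of Grin2b to Grin2a was high in Psmb5 replicate 2, at 5.58. The count ratio of Grin2b to Grin1 was low in mSc replicate 4, at 0.333, the library that also gave the widest Grin1 pair. Grin1os was low in Psmb8 replicate 4, at 8.76 CPM. For Grin2d, pair 6 was the only one in which Psmb5 lay above mSc, by 0.22 on the log2 scale.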

How the results depend on the processing

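With the replicate block, the count of genes called between Psmb8 and mSc went from 1 to 51 in edgeR, and under the block further to 135 with DESeq2, 62 with limma-voom, 321 with no low-count filter, 56 with DESeq2's size factors, 24 with only the groups compared, 64 with the GC trend and 64 with the length trend removed, and 2 without numbers 3 and 6. DESeq2 without the block called 2. Subunit genes called in that comparison went from 0 to 1 in each of these blocked fits, except 2 (Grin1 and Grin2d) with no filter and 0 without numbers 3 and 6. Between Psmb8 and Psmb5 the genes called went from 2 to 6 with the block, 4 with DESeq2, and under the block 23 with DESeq2, 7 with limma-voom, 166 with no filter, 6 with DESeq2's size factors, 16 with only the groups compared, 10 and 7 with the GC and length trends removed, and 4 without numbers 3 and 6. Between Psmb5 and mSc the 1 gene called without and with the block became 11 with DESeq2, 140 with no filter, 2 with only the groups compared and 2 without numbers 3 and 6, all under the block. With no filter under the block, 1 subunit gene, Grin1, was called in each of the last 2 comparisons. Leaving out 1 library without the block gave 1 gene for Psmb5 against mSc, 1 to 2 for Psmb8 against mSc (0 subunit genes) and 2 for Psmb8 against Psmb5. Leaving out 1 number under the block gave 1 to 3, 9 to 59 (with 0 to 1 subunit genes) and 4 to 20 in the same order, with the highest of the last without number 4. The cause of these changes was not tested.

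With the low-count filter, adding the block to the edgeR fit changed the call of no subunit gene other than Grin1; with no filter it also changed that of Grin2d. No log2 fold change of Grin1 changed sign under any alternative run. Depth limits Grin3b, at 3 to 14 counts a library. Uncalled values of the other subunit genes did. Without numbers 3 and 6, Psmb5 against mSc became 0.0014 for Grin2b (0.0081 with the block), -0.088 for Grin2c (-0.040 with the block) and -0.0037 for Grin3a. Psmb8 against mSc became 0.061 for Grin2a (0.057 with the block), 0.018 for Grin2b (0.012 with the block) and 0.00037 for Grin3b. Psmb8 against Psmb5 became 0.25 for Grin3b (0.24 with the block). With limma-voom, Grin3b became 0.029 for Psmb5 against mSc, and Grin2c -0.080 and Grin2b -0.0063 for Psmb8 against Psmb5. The Grin2b value in that last comparison, 0.0025, also became -0.0057 with the block, -0.0042 with no filter, and under the block -0.0066 with DESeq2, -0.0058 with limma-voom, -0.012 with no filter, -0.0065 with DESeq2's size factors and -0.0042 with only the groups compared.

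Leaving out 1 library or number moved Psmb5 against mSc over -0.22 to 0.014 for Grin2a, -0.24 to 0.68 for Grin2c, -0.26 to 0.032 for Grin2d, -0.26 to 0.40 for Grin3a and -0.20 to 0.26 for Grin3b. Psmb8 against mSc moved over -0.12 to 0.12 for Grin2a, -0.40 to 0.96 for Grin2c, -0.35 to -0.014 for Grin2d, -0.52 to 0.27 for Grin3a and -0.27 to 0.15 for Grin3b. Psmb8 against Psmb5 moved over -0.0099 to 0.21 for Grin2a, -0.075 to 0.052 for Grin2b, -0.52 to 0.65 for Grin2c, -0.22 to 0.092 for Grin2d, -0.54 to 0.15 for Grin3a and -0.22 to 0.29 for Grin3b. The log2 ratio of Grin2b to Grin2a moved over -0.11 to 0.095 for Psmb5 against mSc and -0.19 to 0.018 for Psmb8 against Psmb5.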
